A study of Homo sapiens with 12 samples.

Results

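The genes described here are 10 negative feedback and output genes of RAF-MEK-ERK signalling, namely DUSP4, DUSP5, DUSP6, SPRY2, SPRY4, SPRED1, SPRED2, ETV4, ETV5 and PHLDA1. They were picked by symbol from the 12 sample tables, and all 10 were found among the 27249 genes listed there under Ensembl identifiers. The list was put together with the differences between resistant and parental cells already known, so the values of these genes in those contrasts are given as a description, without a test. RNA was sequenced from Huh7 and HepG2, which are established human liver tumour cell lines that the labels call hepatocellular carcinoma cells of wild-type genotype. In each line, 3 resistant and 3 parental samples were available, which gives 4 groups of 3. The resistant cells had been raised by exposure to sorafenib, an oral inhibitor of several kinases including RAF and VEGF receptor kinases. Per the labels, the first dose was 10 μmol, the medium was renewed a day later, and the concentration was raised step by step over 8 months. The parental cells, labelled sorafenib sensitive, received none. The labels do not say whether sorafenib was in the medium at harvest, whether a resistant line is 1 clone, or whether the samples of a group are separate cultures. If they are not, the p-values below measure only the spread between these samples, which may be technical.

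In the RAF-MEK-ERK cascade, active RAS recruits RAF kinases, which activate MEK, which in turn phosphorylates ERK. Active ERK switches on a set of genes within hours, and several of these act back on the cascade. DUSP4 and DUSP5 encode phosphatases that inactivate ERK in the nucleus, and DUSP6 encodes one that does so in the cytoplasm. Sprouty proteins (SPRY) and the related SPRED proteins restrain signalling between growth factor receptors and RAF, and SPRED1 brings the RAS inactivator neurofibromin to the membrane. ETV4 and ETV5 are ETS family transcription factors, and PHLDA1 encodes a protein with a pleckstrin homology-like domain whose transcription follows ERK activity. RNA levels of these genes are widely used as a readout of ERK output, but they are not a measure of ERK phosphorylation, which was not measured in the tables.

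The values are FPKM, that is reads scaled by the exon length of the gene and the depth of the sample. This scaling does not correct for unlike composition of the samples. Rows with NONCODE identifiers, left out here, held 12.3% to 14.5% of the FPKM in resistant and 20.4% to 25.5% in parental Huh7 samples. In HepG2 they held 16.6% to 20.7% in resistant and 15.1% to 16.2% in parental samples. The reads behind a sample, calculated back from the FPKM, numbered 12290128 to 19285970, with the fewest, 12290128 to 15728850, in the HepG2 parental samples. All 9 hepatocyte markers examined had a mean of at least 1 FPKM in every group. Their summed level was 5209 to 5343 FPKM in resistant and 7852 to 9715 FPKM in parental Huh7 samples, and 3894 to 4179 FPKM in resistant and 4966 to 6088 FPKM in parental HepG2 samples. Most of the Huh7 difference in this sum lay in AFP, at 2115 to 2415 FPKM in resistant and 4623 to 6306 FPKM in parental samples, and ALB and APOB also lay below the parental range. Other hepatocyte markers lay above it in resistant Huh7, namely HNF4A (72.7 to 85.5 against 40.5 to 54.1 FPKM), APOA1 (142 to 203 against 64.8 to 134 FPKM) and TF (55.9 to 57.1 against 44.2 to 55.3 FPKM). Of 12 fibroblast, endothelial and leukocyte markers, COL1A1, COL3A1, DCN, LUM, CDH5, VWF, CD3E and CD68 had group means under 1 FPKM in all 4 groups, and no cell type's sum exceeded 7.55 FPKM in any sample. The other markers were PDGFRB (1.80 to 4.50 FPKM over all samples), PECAM1 (1.12 to 3.61 FPKM), PTPRC (0.747 to 1.51 FPKM) and LYZ. LYZ was at 3.84 to 6.26 FPKM in HepG2 and at 0.206 to 0.947 FPKM in Huh7 samples. In bulk RNA, fewer cells of one kind and less RNA per cell cannot be told apart. In Huh7, GC-rich genes tended to have the higher resistant minus parental differences (Spearman correlation 0.62 across 12545 genes), which was hardly so in HepG2 (0.04 across 11756 genes); genes are not independent replicates. The median GC content of the genes tested in Huh7 was 46.7%, and the 10 genes described here ranged from 38.9% in SPRED1 to 60.8% in ETV4, so the Huh7 differences are also given below with the GC trend of each library removed.

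Start site regions in RefSeq on GRCh38.p14 were matched for 6 of the 10 genes, namely DUSP6, SPRY2, SPRY4, SPRED1, SPRED2 and PHLDA1; DUSP4, DUSP5, ETV4 and ETV5 were not matched. Stretches before the start are shown for DUSP6, SPRY4 and SPRED2, since these were higher in every resistant sample of Huh7 and lower in every resistant sample of HepG2 than in the parental samples. Capitals mark GGAA or its reverse complement, the core of ETS factor sites, and TGAATG, the core of sites bound by the repressor CIC, whose repression ERK relieves. The SPRY4 and SPRED2 stretches are the parts of the 250 bases before the start that lie outside exons of GENCODE 29. The whole of this window of DUSP6 lies in an exon of a longer DUSP6 transcript, so that only the 30 bases richest in matches are printed. All 3 genes lie on the minus strand, and sequences are written 5′ to 3′ along the gene, at chr12:89352629-89352658 for DUSP6, chr5:142324418-142324497 for SPRY4 and chr2:65432638-65432849 for SPRED2.
DUSP6: agcGGAAaTTCCtTTCCgtttttgTGAATG
SPRY4: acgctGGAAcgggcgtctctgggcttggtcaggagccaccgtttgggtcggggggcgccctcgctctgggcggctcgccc
SPRED2: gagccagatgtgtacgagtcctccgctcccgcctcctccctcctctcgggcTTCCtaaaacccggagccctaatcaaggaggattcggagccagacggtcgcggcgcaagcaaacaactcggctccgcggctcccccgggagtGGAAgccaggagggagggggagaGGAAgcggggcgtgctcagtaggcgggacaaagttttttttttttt
The motifs were searched on both strands of the 250 bases before 1 start per gene, the first one listed. SPRY2 had 3 listed starts and SPRED2 had 2, and their other starts were not searched. GGAA was found 6 times before DUSP6, 4 times before SPRED2 and PHLDA1, 3 times before SPRY2 and SPRED1 and 2 times before SPRY4, and 92.7% of 35116 start site regions of the same length hold it. TGAATG was found before DUSP6 only, from base −133 to base −128 relative to the start, against 9.92% of all regions. The longer forms CCGGAAG (8.52% of regions) and TGAATGAA (1.40%), which contain GGAA and TGAATG, the AP-1 motif TGANTCA (6.57%) and the CRE motif TGACGTCA (1.65%) were not found before any of the 6 genes. The short forms were searched after the long ones had given no match.

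Among the phosphatases, DUSP5 (chr10:110497838-110511544, plus strand) differed most. Its level was 274, 222 and 241 FPKM in the resistant Huh7 samples and 71.0, 64.3 and 55.6 FPKM in the parental ones. In HepG2 its level was 4.0, 4.23 and 3.62 FPKM in the resistant samples and 119, 102 and 55.0 FPKM in the parental ones. The resistant samples thus lay above every parental sample in Huh7 and below every parental sample in HepG2. On the log2(FPKM + 1) scale used throughout, the difference was 1.93 ± 0.13 (SE, n = 3 per group) in Huh7 and −4.16 ± 0.26 in HepG2, where the parental mean was 23.2-fold higher than the resistant mean and only 1 of the 11762 genes tested had a lower value. The low HepG2 values rested on 177, 202 and 163 reads, against 4073, 3268 and 2261 in the parental samples. In resistant Huh7 cells DUSP5 had the 101st highest level of the 11525 genes with a mean of at least 1 FPKM, and in resistant HepG2 cells the 7685th of 11729.

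DUSP6 (chr12:89347232-89353271, minus strand) was measured at 34.4, 39.0 and 37.3 FPKM in resistant and 15.5, 14.4 and 14.9 FPKM in parental Huh7 samples. In HepG2 the resistant samples had 30.9, 26.4 and 28.0 FPKM and the parental samples 33.8, 40.3 and 39.4 FPKM. Resistant and parental samples were apart in both lines, and the differences were 1.25 ± 0.10 in Huh7 and −0.40 ± 0.14 in HepG2. Ordered by mean, parental HepG2 (37.8 FPKM) and resistant Huh7 (36.9 FPKM) overlapped, followed by resistant HepG2 (28.4 FPKM) and parental Huh7 (15.0 FPKM), which did not. An antisense gene, AC024909.2, overlaps DUSP6, and reads of both strands cannot be told apart where counting did not use strand, which is not stated. DUSP4 was low throughout, at 2.75, 2.89 and 2.96 FPKM in resistant and 0.868, 0.826 and 0.657 FPKM in parental Huh7 samples. The Huh7 difference was 1.12 ± 0.10. Every parental Huh7 value was under 1 FPKM, so that DUSP4 passed the filter in Huh7 only through the resistant samples. In HepG2, DUSP4 was at 0.342, 0.603 and 0.432 FPKM in resistant and 0.262, 0.336 and 0.175 FPKM in parental samples, which rest on 42 to 80 and 20 to 30 reads, so that it did not pass the filter of 1 FPKM in 3 of the 6 samples and was not fitted there.

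The 2 Sprouty genes differed in opposite directions in Huh7. SPRY2 was at 16.9, 16.4 and 18.6 FPKM in resistant and 35.5, 31.0 and 27.0 FPKM in parental Huh7 samples. SPRY2 in HepG2 was at 6.10, 6.27 and 6.10 FPKM in resistant and 7.45, 7.85 and 9.02 FPKM in parental samples. It was thus lower in every resistant sample of both lines, by −0.81 ± 0.12 in Huh7 and −0.34 ± 0.13 in HepG2, and no 2 neighbouring groups overlapped in the order from parental Huh7 down to resistant HepG2. SPRY4 was at 30.2, 28.0 and 33.1 FPKM in resistant and 19.1, 18.8 and 16.8 FPKM in parental Huh7 samples. SPRY4 in HepG2 was at 32.0, 38.9 and 42.3 FPKM in resistant and 47.0, 56.7 and 59.8 FPKM in parental samples. The SPRY4 difference was 0.71 ± 0.11 in Huh7 and −0.52 ± 0.16 in HepG2, with no overlap between the groups in either line. Within a sample, the level of SPRY4 over that of SPRY2 was 1.71 to 1.79 in resistant Huh7, 0.540 to 0.622 in parental Huh7, 5.25 to 6.93 in resistant HepG2 and 6.31 to 7.23 in parental HepG2. This ratio, which needs no scaling between libraries, did not overlap between resistant and parental Huh7 and overlapped between resistant and parental HepG2. The GC trend in Huh7 was not removed from it.

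Of the SPRED genes, SPRED2 was the more abundant, at 7.75 to 11.9 times the level of SPRED1 in HepG2 samples and 5.97 to 9.85 times in Huh7 samples. SPRED2 was at 47.7, 52.2 and 45.7 FPKM in resistant and 40.5, 40.1 and 33.8 FPKM in parental Huh7 samples. Its HepG2 values were 58.9, 61.0 and 61.7 FPKM in resistant and 67.7, 79.1 and 82.2 FPKM in parental samples. The differences, 0.34 ± 0.11 and −0.32 ± 0.13, were small, although no resistant sample fell within the parental range. SPRED1 ranged from 4.85 to 6.30 FPKM in resistant and from 4.36 to 5.66 FPKM in parental Huh7 samples, and from 5.15 to 7.35 FPKM in resistant and from 7.13 to 10.6 FPKM in parental HepG2 samples. Its groups overlapped in both lines, with differences of 0.13 ± 0.13 and −0.39 ± 0.19.

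The ETS factor ETV4 was at 29.6, 23.7 and 27.6 FPKM in resistant and 13.6, 9.79 and 10.6 FPKM in parental Huh7 samples, a difference of 1.19 ± 0.14. In HepG2 it was at 31.2, 48.1 and 35.8 FPKM in resistant and 34.2, 42.1 and 33.3 FPKM in parental samples, which overlapped. The HepG2 difference of 0.05 ± 0.19 fell to −0.09 with upper-quartile scaling, −0.06 with median-ratio scaling and −0.03 without the GC trend. ETV5, the most abundant of the 10 genes after DUSP5 in both Huh7 groups, was at 74.2, 70.0 and 64.9 FPKM in resistant and 57.9, 52.9 and 42.9 FPKM in parental Huh7 samples. ETV5 in HepG2 was at 69.7, 82.9 and 77.7 FPKM in resistant and 92.3, 118 and 80.8 FPKM in parental samples, which overlapped. The ETV5 differences were 0.45 ± 0.13 in Huh7 and −0.32 ± 0.17 in HepG2. Exons of DHX8 on the opposite strand overlap ETV4 and exons of DGKG on the same strand overlap ETV5, so that reads of the shared stretch cannot be told apart where counting did not use strand (ETV4) or at all (ETV5).

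PHLDA1 (chr12:76025447-76033932, minus strand) had the lowest value of the 10 genes in the Huh7 contrast. It was at 2.08, 2.53 and 2.51 FPKM in resistant and 13.2, 11.2 and 11.3 FPKM in parental Huh7 samples, with a difference of −1.93 ± 0.12 and a parental mean 5.01-fold the resistant one. In HepG2 it was at 15.6, 14.6 and 15.0 FPKM in resistant and 21.4, 27.4 and 35.0 FPKM in parental samples, a difference of −0.82 ± 0.18. PHLDA1 and SPRY2 were the genes of the 10 that lay below the parental range in every resistant sample of both lines. The antisense genes AC011611.3 and AC011611.4 overlap PHLDA1.

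**Figure D1:**
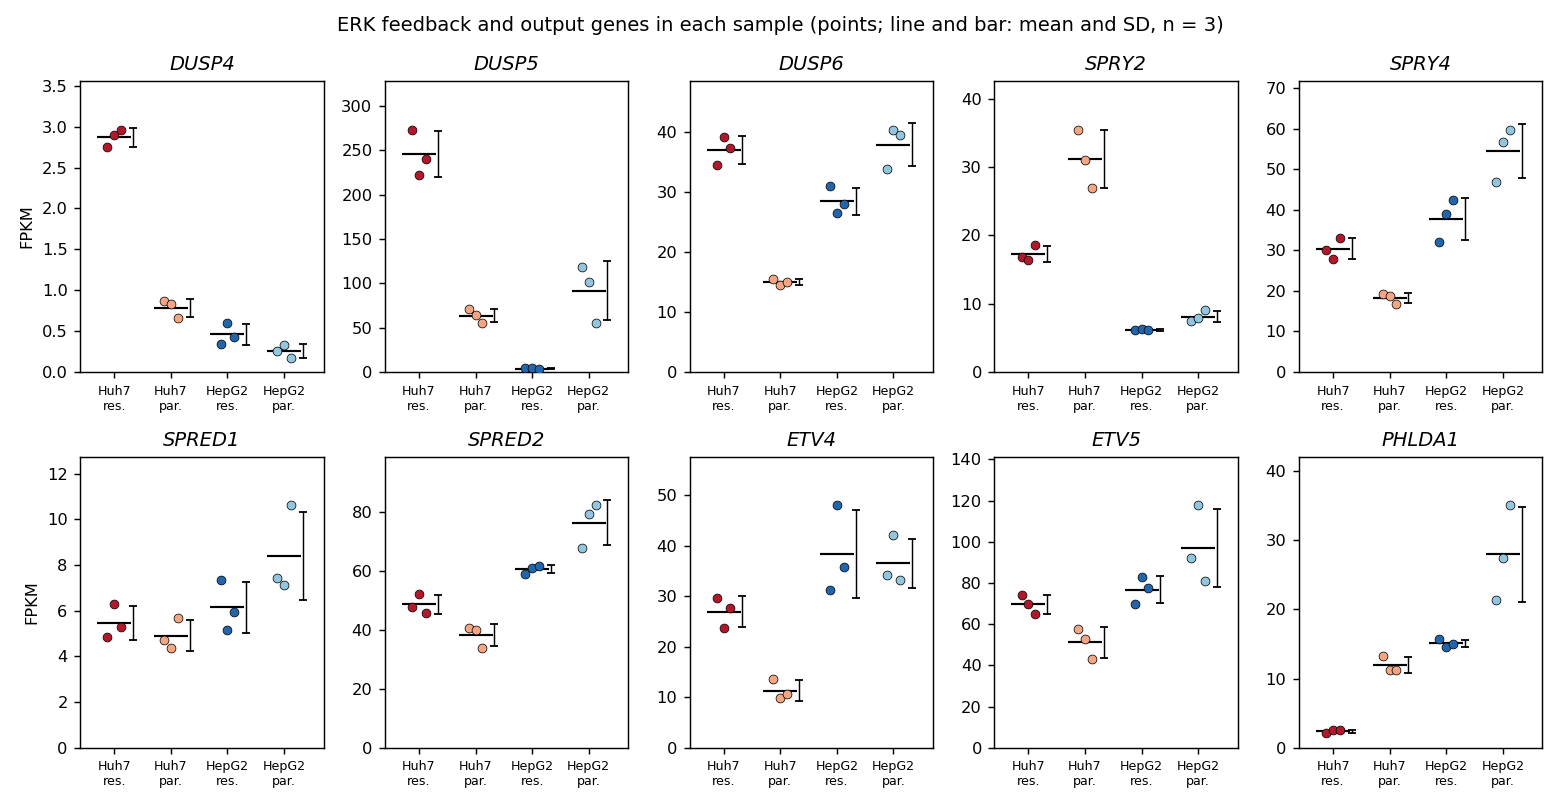
FPKM (linear axis from 0, one scale per gene) of the 10 genes in each of the 12 samples, grouped as resistant (res.) and parental (par.) Huh7 and HepG2; points are samples, lines are means and bars are SD (n = 3). DUSP5 sits at 222 to 274 FPKM in resistant Huh7 samples and at 3.62 to 4.23 FPKM in resistant HepG2 samples.

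Taken by the thresholds used for all genes, an adjusted p under 0.05 in limma and a log2 difference beyond 1, the list counted as follows; since the list was chosen with these contrasts known, nothing is read from the counts. In Huh7, 10 of 10 genes passed the filter, of which 4 were called higher (DUSP4, DUSP5, DUSP6 and ETV4) and 1 lower (PHLDA1), against 8.59% of 12554 genes called higher and 14.0% called lower. The split over all genes, 1079 higher and 1759 lower, turned to 1549 higher and 1356 lower with upper-quartile scaling. All resistant Huh7 samples lay above all parental samples for 7 genes and below them for 2, against 35.2% and 39.2% of all genes. In HepG2, 9 of 10 passed the filter, of which 0 were called higher and 1 lower (DUSP5), against 3.29% of 11762 genes called higher and 2.98% called lower. Over all genes this was 387 higher and 350 lower, but 265 and 456 with upper-quartile scaling and 290 and 429 with median-ratio scaling. Limma-voom on the reads calculated back also called 0 of the list higher and 1 lower, against 646 higher and 511 lower of all 11760 genes. At an unadjusted p under 0.05 in limma, 7 of the 10 were higher and 2 lower in Huh7, and 0 of the 9 higher and 6 lower in HepG2. All genes were not counted at that unadjusted threshold, so these counts have no background and nothing is read from them. All resistant HepG2 samples lay above the parental samples for 0 of these 9 genes and below them for 6, against 24.9% and 15.5% of all genes; DUSP4, which did not pass the filter, lay above. Of the 9 genes fitted in both lines, 4 (DUSP5, DUSP6, SPRY4 and SPRED2) were above in Huh7 and below in HepG2, a combination held by 6.71% of the 10688 genes tested in both lines, and 0 were below in Huh7 and above in HepG2, as 9.54% were. The median difference over the genes that passed the filter was 0.58 in Huh7, where the median of all genes was −0.04, and −0.39 in HepG2, where it was 0.12. The Huh7 counts and median include DUSP4, which passed the filter there only through the resistant samples. With a filter of 5 FPKM, which left 9 genes of the list without DUSP4, the Huh7 median was 0.45, beside 0.09 for all genes. In HepG2, upper-quartile and median-ratio scaling brought the median of all genes from 0.12 to 0.00 and 0.03, respectively, and the median of the list to −0.51 and −0.48.

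**Figure D2:**
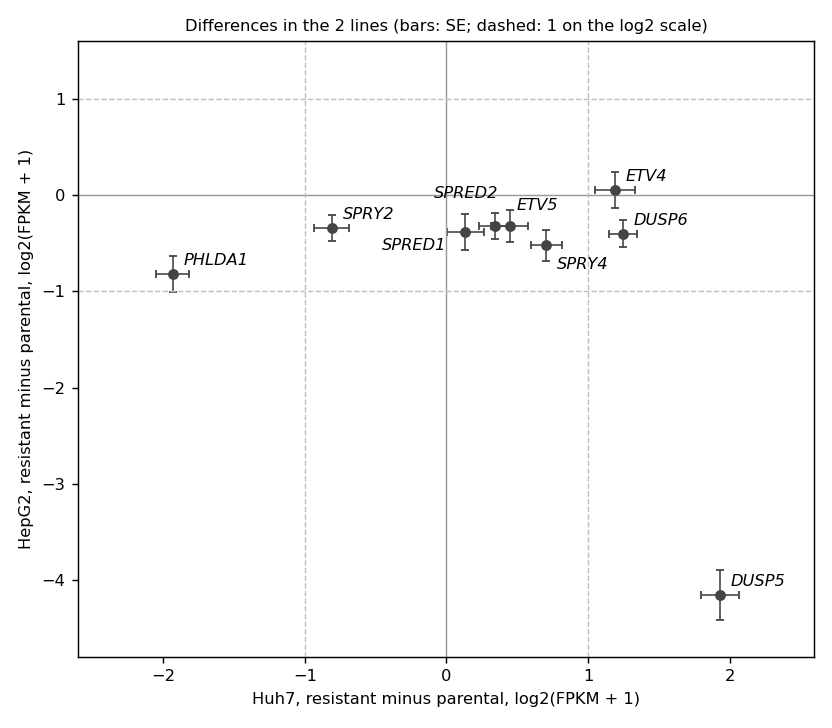
Difference between resistant and parental cells on the log2(FPKM + 1) scale in Huh7 (x axis) and HepG2 (y axis) for the 9 genes fitted in both lines; bars are SE and dashed lines mark 1 and −1. DUSP5 lies at 1.93 and −4.16, whereas PHLDA1 and SPRY2 lie below 0 on both axes; ETV4, at 0.05 in HepG2, lies at −0.09 there with upper-quartile scaling.

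Taking off each library's GC trend changed some of the Huh7 differences. DUSP6, with a GC content of 46.7%, moved from 1.25 to 1.22, and PHLDA1 (44.3%) from −1.93 to −1.74. DUSP5 (55.9%) moved from 1.93 to 1.39 and remained past both thresholds. DUSP4 (51.3%) moved from 1.12 to 0.76 and ETV4 (60.8%) from 1.19 to 0.62, so that neither was called any more. SPRED1, the gene of the list with the lowest GC content, moved from 0.13 to 0.82. Whether the trend arose in the libraries or in the cells was not tested.

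**Figure D3:**
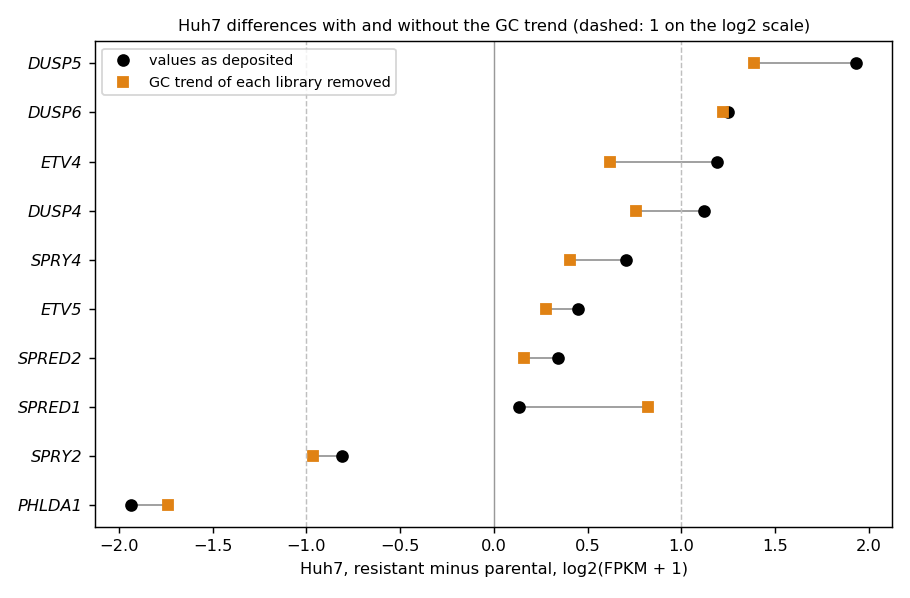
Huh7 difference between resistant and parental samples on the log2(FPKM + 1) scale for the 10 genes, from the values as deposited (circles) and with the GC trend of each library removed (squares); dashed lines mark 1 and −1. DUSP5 and DUSP6 stay above 1, whereas ETV4 falls to 0.62 and DUSP4 to 0.76.

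The ratio of the nuclear to the cytoplasmic phosphatase was set within each sample. DUSP5 was at 5.69 to 7.94 times the level of DUSP6 in resistant Huh7, 3.73 to 4.58 times in parental Huh7, 1.40 to 3.51 times in parental HepG2 and 0.129 to 0.160 times in resistant HepG2. These ranges did not overlap between any of the 4 groups. The ratio of ETV5 to ETV4 was 2.35 to 2.95 in resistant and 4.06 to 5.40 in parental Huh7 samples, and 1.72 to 2.24 in resistant and 2.43 to 2.80 in parental HepG2 samples, without overlap within either line. GC content was 55.9% in DUSP5 and 46.7% in DUSP6, and 60.8% in ETV4 and 48.6% in ETV5. The ratios were taken with the GC trend left in. In Huh7, its removal lowered the DUSP5 and ETV4 differences given above more than that of DUSP6, so the Huh7 ratios carry part of that trend.

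The starting levels of the 2 lines were set side by side in parental Huh7 and parental HepG2. The parental samples are also those of the contrasts the list was chosen on, so these differences are given as a description, with no test. SPRY2 was at the higher level in parental Huh7, by 1.82 ± 0.15, with means of 31.2 and 8.10 FPKM. DUSP6, SPRY4, ETV4 and PHLDA1 were at the lower level there. For DUSP6 the difference was −1.28 ± 0.13 and for SPRY4 −1.52 ± 0.14. For ETV4 it was −1.61 ± 0.16 and for PHLDA1 −1.14 ± 0.19, which came to −0.97, under the threshold of 1, without HepG2 parental replicate 3. By the thresholds used for all genes, 1 gene counted as higher and 4 as lower of the 9 that passed the filter, against 19.4% of 12796 genes called higher and 12.5% called lower. That background is itself unsteady, since its 2482 genes called higher and 1599 called lower became 1368 to 1526 higher and 1541 to 1706 lower when any 1 parental Huh7 sample was left out. When any 1 parental HepG2 sample was left out, they became 2349 to 2678 higher and 1066 to 1202 lower. Upper-quartile scaling gave 2016 higher and 2033 lower, and median-ratio scaling 2037 and 2016. SPRED2 at −0.98 ± 0.14, ETV5 at −0.90 ± 0.18 and SPRED1 at −0.65 ± 0.18 were under the threshold of 1. DUSP5 differed by −0.46 ± 0.27, and its parental groups overlapped. The median over the 9 genes was −0.98, beside 0.19 for all genes tested; upper-quartile and median-ratio scaling brought the latter to 0.01 and 0.02 and the number of list genes called lower to 6. Differences between the parental lines also ran with GC content (Spearman correlation −0.31 across 12789 genes). Without the GC trend of each library, 5 list genes were called lower and 1 higher.

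Between resistant Huh7 and resistant HepG2, which share their samples with the contrasts the list was chosen on, DUSP4, DUSP5 and SPRY2 were higher in Huh7 and PHLDA1 was lower. The DUSP5 difference was 5.64 ± 0.11, with means of 246 and 3.95 FPKM, a ratio of 62.2, and that of PHLDA1 −2.26 ± 0.10, with means of 2.37 and 15.1 FPKM. SPRY2 differed by 1.35 ± 0.09 and DUSP4 by 1.41 ± 0.10. DUSP4 passed the filter in this comparison only through the Huh7 samples. The other 6 genes were not called, and their differences ranged from −0.47 ± 0.17 in ETV4 to 0.37 ± 0.10 in DUSP6. These counts of 3 higher and 1 lower stand against 14.4% of 12550 genes called in each direction, 1805 higher and 1808 lower. Leaving out any 1 resistant Huh7 sample brought the genes called higher to between 972 and 1041, and leaving out any 1 resistant HepG2 sample brought those called lower to between 1147 and 1311. Differences between the resistant lines ran less with GC content (Spearman correlation 0.18 across 12541 genes). Without the GC trend, 3 list genes were still called higher and 1 lower.

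Other genes that follow ERK activity were examined in a list of 14 that held no member of the first list. This list and the further lists below were also chosen with earlier results of these data known. Their counts and p-values are therefore a description and no independent support. IER3 was not analysed here. In Huh7, 10 were tested and 2 rose in resistant cells, against 8.59% of all genes called higher. These were FOSL1 and FOS, both of which encode AP-1 transcription factors. None was called lower, against 14.0% of all genes. Limma-voom called 4 of the 10 higher and 0 lower, against 1630 higher and 2665 lower of all 12552 genes. At an unadjusted p under 0.05 in limma, 7 were higher and 2 lower. All genes were not counted at that unadjusted threshold in either line, so nothing is read from the unadjusted counts of this list. FOSL1 was at 8.32, 6.05 and 7.55 FPKM in resistant and 0.975, 0.755 and 1.02 FPKM in parental Huh7 samples (2.11 ± 0.13, limma, adjusted p = 1.36e-05). FOS was at 2.69, 2.43 and 2.83 FPKM in resistant and 0.602, 0.458 and 0.229 FPKM in parental Huh7 samples (1.36 ± 0.13). Every parental FOS value was under 1 FPKM, so FOS passed the filter only through the resistant samples, and no p-value is given for it. With no filter on low values, 2 of 13 genes of the list were called higher in Huh7. The FOS difference was 0.93 without the GC trend, under the threshold, and FOS could not be fitted when resistant replicate 1, 2 or 3 was left out. In HepG2, 9 were tested and 3 fell in resistant cells, against 2.98% of all genes called lower, and none was called higher, against 3.29%. At an unadjusted p under 0.05 in limma, 1 of the 9 was higher and 5 were lower in HepG2, and limma-voom called 0 higher and 3 lower. Of all 11760 genes, limma-voom called 646 higher and 511 lower in HepG2. ERRFI1, which encodes an inhibitor of the EGF receptor, was at 34.6, 34.1 and 33.4 FPKM in resistant and 217, 210 and 167 FPKM in parental HepG2 samples (−2.50 ± 0.15, limma, adjusted p = 8.72e-05). MYC, a growth-promoting transcription factor, was at 79.5, 96.3 and 92.1 FPKM in resistant and 262, 286 and 305 FPKM in parental HepG2 samples (−1.66 ± 0.14, limma, adjusted p = 0.000424). MAFF, a small MAF transcription factor, was at 1.09, 1.15 and 0.890 FPKM in resistant and 6.21, 5.85 and 3.71 FPKM in parental HepG2 samples (−1.59 ± 0.19, limma, adjusted p = 0.00147). The median of this list was 0.57 among the genes tested in Huh7 and −0.47 among those tested in HepG2, beside −0.04 and 0.12 for all genes. The Huh7 median includes FOS and also SPRY1, which passed the filter there only through the parental samples. The HepG2 median includes ETV1, which passed it there only through the resistant samples. In the other line, MYC and MAFF differed by 0.88 ± 0.14 and 0.81 ± 0.12 in Huh7, under the threshold of 1, and FOSL1 by −0.44 ± 0.17 in HepG2.

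Of 29 genes that encode components of the cascade itself or factors that read it, 28 were tested in each line. In Huh7, 0 were called higher and 6 fell in resistant cells, namely SOS1 and SOS2, the exchange factors that load RAS with GTP, BRAF, the phosphatase gene PTPN11, the scaffold gene SHOC2, and RASA1, a GTPase-activating protein that switches RAS off. Over all genes, 8.59% were called higher and 14.0% lower in Huh7. RASA1 was at 3.14, 3.59 and 2.91 FPKM in resistant and 8.37, 11.2 and 15.0 FPKM in parental Huh7 samples (−1.54 ± 0.19, limma, adjusted p = 0.000174), and the other 5 had differences between −1.25 in SOS1 and −1.01 in PTPN11. SHOC2 came to −0.96 without parental replicate 3, and PTPN11 to −0.93 without resistant replicate 3, both under the threshold of 1; over the 6 leave-one-out fits, PTPN11 was called 3 times, falling under it also without parental replicate 2 or 3. With upper-quartile scaling, 5 cascade genes were called higher and 3 lower in Huh7, and with median-ratio scaling 4 and 5. The 6 genes that fell have GC contents between 37.2% in SHOC2 and 43.6% in RASA1, under the median of the genes tested, and without the GC trend RASA1 alone was called (−1.27). At an unadjusted p under 0.05 in limma, 12 of the 28 were higher and 11 lower in Huh7, where limma-voom called 3 higher and 8 lower. Of all 12552 genes, limma-voom called 1630 higher and 2665 lower in Huh7. All genes were not counted at the unadjusted threshold in either line, so nothing is read from those counts. In HepG2, 0 were called higher and 1 fell, ATXN1, which encodes a partner of the repressor CIC, against 3.29% of all genes called higher and 2.98% lower. There, 4 were higher and 2 lower at an unadjusted p under 0.05 in limma. Limma-voom called 1 higher and 2 lower in HepG2, against 646 higher and 511 lower of all 11760 genes. ATXN1 was at 5.05, 3.71 and 4.18 FPKM in resistant and 18.3, 12.8 and 16.3 FPKM in parental HepG2 samples (−1.65 ± 0.17, limma, adjusted p = 0.00088). The median of the cascade genes was 0.27 in Huh7 and −0.03 in HepG2.

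Among 7 further MAP kinase phosphatases, 6 were tested in each line. In Huh7, 0 were called in limma, against 8.59% of all genes called higher and 14.0% lower. At an unadjusted p under 0.05 in limma, 2 were higher and 1 lower in Huh7. Limma-voom on the reads calculated back called 1 higher there, against 1630 higher and 2665 lower of all 12552 genes. In HepG2, 2 fell in resistant cells and 0 were called higher, against 2.98% of all genes called lower and 3.29% higher. At an unadjusted p under 0.05 in limma, 4 were lower and 1 higher in HepG2. Limma-voom called 2 lower and 0 higher there, against 511 lower and 646 higher of all 11760 genes. All genes were not counted at the unadjusted threshold in either line, so nothing is read from the unadjusted counts of these phosphatases. DUSP1, an early response phosphatase of JNK, p38 and ERK, was at 6.52, 7.21 and 8.43 FPKM in resistant and 26.0, 26.5 and 14.9 FPKM in parental HepG2 samples (−1.45 ± 0.23, limma, adjusted p = 0.00435). DUSP8, a phosphatase of JNK and p38, was at 0.883, 1.66 and 1.57 FPKM in resistant and 4.65, 3.97 and 5.26 FPKM in parental HepG2 samples (−1.26 ± 0.18, limma, adjusted p = 0.00311). The median of the phosphatases was 0.06 in Huh7 and −0.59 in HepG2.

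**Figure D4:**
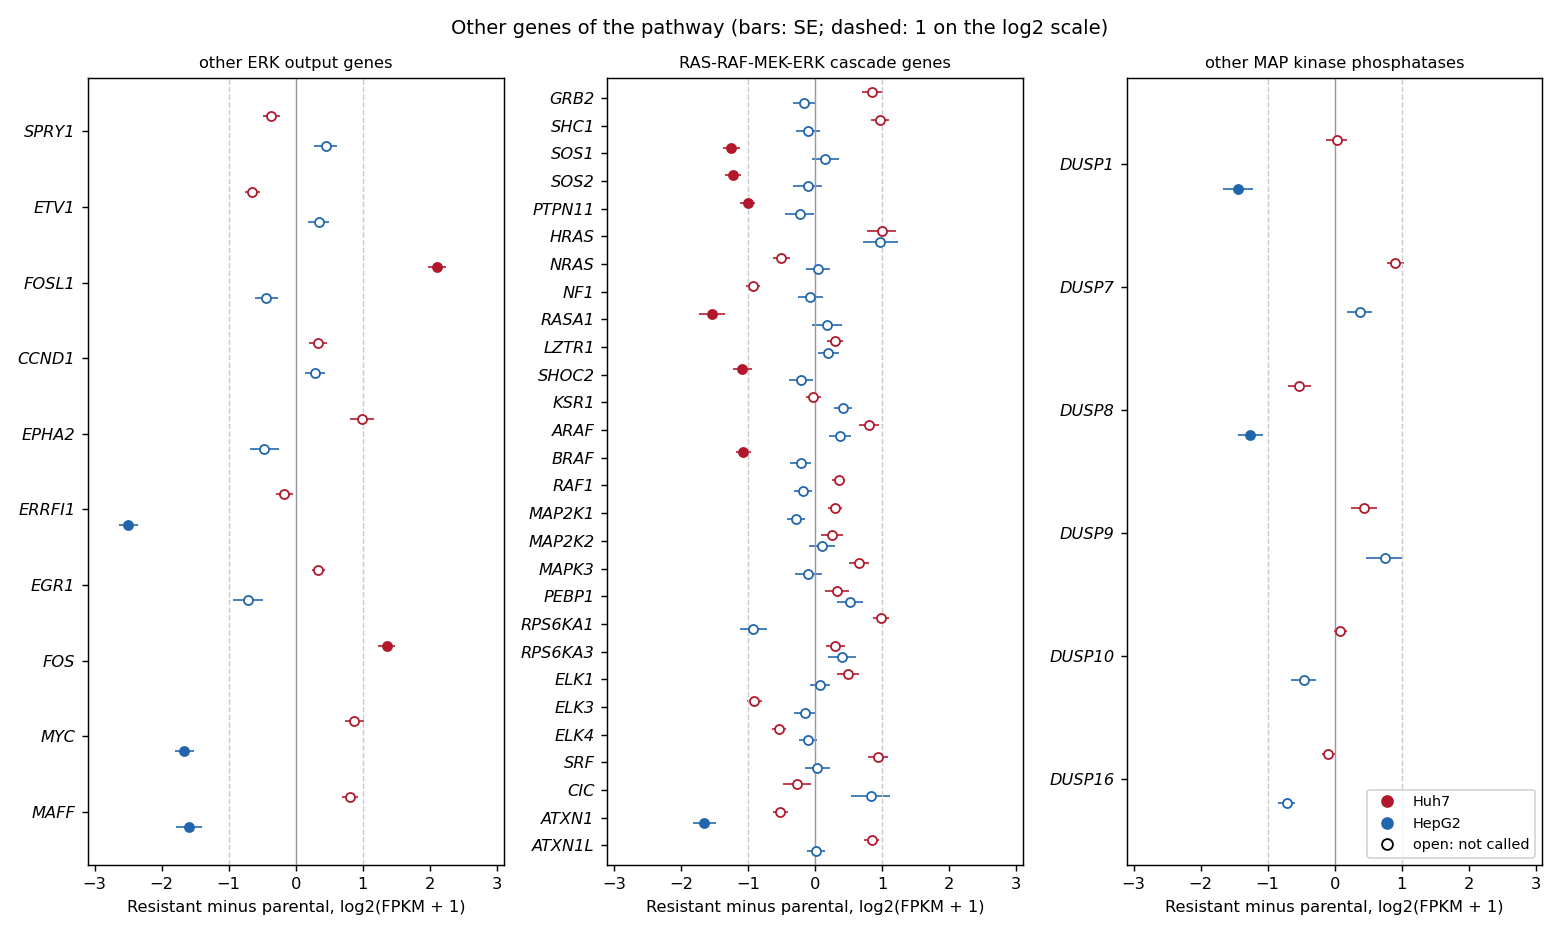
Difference between resistant and parental cells on the log2(FPKM + 1) scale for the tested genes of the 3 further lists, in Huh7 (red) and HepG2 (blue); bars are SE, dashed lines mark 1 and −1, and filled points passed both thresholds. Filled points lie to the right for FOSL1 and FOS in Huh7 and to the left for ERRFI1, MYC, MAFF, ATXN1, DUSP1 and DUSP8 in HepG2 and for 6 cascade genes in Huh7, of which 1 stays filled without the GC trend.

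The genes whose pattern over the 12 samples was most like that of DUSP6 were taken from the 10688 genes tested in both lines by Pearson's correlation of log2(FPKM + 1). These were TOB1 (r = 0.989), BRD2 (0.984), TNFRSF10A (0.983), ABCG2 (0.98) and CTPS2 (0.972). TNFRSF10A, which encodes a TRAIL receptor, had means of 19.5 and 3.31 FPKM in resistant and parental Huh7 and of 10.6 and 18.3 FPKM in resistant and parental HepG2. ABCG2, which encodes a drug efflux pump, had means of 10.7 and 2.83 FPKM in Huh7 and of 5.93 and 9.71 FPKM in HepG2. Closest to the mean profile of the 10 genes were RCC1 (0.985), SF3A3 (0.984), DKC1 (0.98), TBC1D24 (0.98) and AAED1 (0.98). Among the 10 genes themselves, correlations ranged from −0.98 (DUSP4 with PHLDA1) to 0.96 (SPRY4 with SPRED2). Their mean profile thus need not resemble that of each gene. The 12 samples fall into 4 groups, so that such a correlation mostly reflects the order of 4 group means, and it is given as a description.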

How the data were processed

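RNA of 12 samples was analysed, with 3 resistant and 3 parental samples of each of 2 cell lines; groups and replicate numbers came from the sample labels. The labels name an RNeasy kit for extraction and the study's methods TRIzol; libraries were made with a NEBNext Ultra kit. The submitters' processing notes name bcl2fastq and the build GRCh38, whereas the aligner and the quantification tool are not given in the sources used here.

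The FPKM values were used as deposited by the authors; the unit is not stated and was taken from the values, which cannot tell RPKM from FPKM. Multiplied by exon length from GENCODE 29, they gave whole reads within 0.05 for 96.3% to 96.5% of the values of up to 2000 reads per sample, and for 120 of 120 values of the genes described. Depth was 12290128 to 19285970 reads; replicates were no duplicates of one another, since each pair differed beyond counting noise. The 71462 rows with NONCODE identifiers were left out. Columns of annotation were used for symbols and gene coordinates only.

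Each comparison was fitted over its own 6 samples with limma 3.58.1 (trend) on log2(FPKM + 1), and genes had to reach 1 FPKM in 3 or more of these samples. Fold changes of low genes are understated on this scale. P-values were adjusted by Benjamini-Hochberg over all genes tested, and a gene was called at an adjusted p under 0.05 and a log2 difference beyond 1. The code of the fit was tried on simulated data with known changes. Those data held no GC trend and 1 fixed spread for all genes, so the run does not show how the fit performs on the real data. Alternatives were a pseudocount of 0.1, no filter and a filter of 5 FPKM, upper-quartile and median-ratio scaling, a replicate block, limma-voom on reads calculated back, a single fit of all 12 samples, limma with no trend, removal of each library's GC trend (lowess, span 0.3) and fits that each left out 1 sample.

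The members, the further gene lists and the tests were chosen with earlier results of these data known. Every member is named; of the further lists, genes called in either line are named, up to 8 per list and line; and the 5 genes closest to DUSP6 and to the mean of the members are named. Some genes of the cascade list are not reported here and were left out of its counts. Promoter bases came from the RefSeq table on GRCh38.p14. Tools were R 4.3.3, Python 3.11.15, pandas 2.3.3, numpy 2.4.6 and matplotlib 3.10.9.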

Additional observations from a re-analysis of the deposited data

Results flagged for a closer look

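Of the 52 genes of the 4 lists that were tested in both lines, 12 were apart in opposite directions in the 2 lines. For 10 of these, every resistant sample lay above the parental samples in Huh7 and below them in HepG2, which 6.71% of the 10688 genes tested in both lines did; for 2 it was the reverse, as for 9.54%. The 12 were 4 of 9 feedback genes, 6 of 9 further ERK output genes, 2 of 28 cascade genes and 0 of 6 other phosphatases. The 2 with the reverse order were SPRY1 and ETV1. SPRY1 passed the filter in Huh7 only through the parental samples, with every resistant value under 1 FPKM. ETV1 passed it in HepG2 only through the resistant samples, with every parental value under 1 FPKM. Nothing is read from these 2. The difference between the lines was not tested for any of them, and for the feedback genes the contrasts are those the list was chosen on. The further lists, too, were chosen with earlier results of these data known. The Huh7 value minus the HepG2 value, on the log2(FPKM + 1) scale, was 6.09 for DUSP5, 1.65 for DUSP6, 1.23 for SPRY4 and 0.67 for SPRED2. For the further ERK output genes it was 2.55 for FOSL1, 2.54 for MYC, 2.40 for MAFF, 1.06 for EGR1, −0.81 for SPRY1 and −0.99 for ETV1, and for the cascade genes 1.90 for RPS6KA1 and 0.58 for MAP2K1. EGR1, SPRY1, ETV1, RPS6KA1 and MAP2K1 were called in neither line and were named after their values were seen. Without the GC trend of each library, the Huh7 values were 1.39 for DUSP5, 1.22 for DUSP6, 0.41 for SPRY4, 0.16 for SPRED2, 1.53 for FOSL1, 0.39 for MYC, 0.26 for MAFF and 0.42 for RPS6KA1. MAP2K1 was at 0.0011 and SPRY1 at −0.21 without it, and EGR1 turned from 0.34 to −0.19 and ETV1 from −0.65 to 0.11.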

How the results depend on the processing

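The 3 samples per group, the unstated steps between reads and FPKM and the GC trend in Huh7 limit these results, and DUSP4 in HepG2 rests on 20 to 80 reads a sample. Of the settings tried, removal of the GC trend moved the number of feedback genes called in Huh7 by over 1.5 times, from 5 to 3, under which DUSP4 and ETV4 lost their calls; in HepG2 the number stayed at 1 in all. Leaving out 1 sample gave 4 to 5 feedback genes in Huh7; DUSP4 could not be fitted without any 1 of the resistant Huh7 samples. The cause of the other changes below was not tested.

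The number of other ERK output genes called in Huh7, 2, became 4 with a pseudocount of 0.1, upper-quartile scaling or limma-voom, 1 with a filter of 5 FPKM or without the GC trend, and 1 to 3 on leaving out 1 sample, with 1 without resistant replicate 1 or 3. For cascade genes, 6 became 10 with a pseudocount of 0.1, 11 with limma-voom and 1 without the GC trend in Huh7, with 4 to 11 on leaving out 1 sample. There, it was 10 without resistant replicate 2 and 11 without parental replicate 1. In HepG2, 1 cascade gene became 3 with a pseudocount of 0.1 or limma-voom, 2 with upper-quartile or median-ratio scaling, and 1 to 3 on leaving out 1 sample, with 3 without resistant replicate 1 or parental replicate 3 and 2 without resistant replicate 2. Of the other phosphatases, 0 in Huh7 became 1 with a pseudocount of 0.1, upper-quartile scaling, limma-voom or removal of the GC trend, and 2 in HepG2 became 1 with a filter of 5 FPKM. Over all genes, 2838 calls in Huh7 became 1857 with a filter of 5 FPKM, 1506 without the GC trend and 4295 with limma-voom, and 737 in HepG2 became 1157 with limma-voom. With a filter of 5 FPKM, 4081 calls between the parental lines became 2492 and 3613 between the resistant lines became 2211.

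Directions changed for uncalled values only, among them the ETV4 values of HepG2 given above (0.05), which were −0.12 without resistant replicate 2 and −0.01 without parental replicate 3. DUSP1 in Huh7 was −0.49 without the GC trend and −0.12 to 0.17 on leaving out 1 sample, against 0.03. ERRFI1 in Huh7 was 0.12 without the GC trend, against −0.17. On leaving out 1 sample in HepG2, RASA1 was −0.047 to 0.35 (main value 0.17), SOS1 −0.019 to 0.26 (0.15) and SOS2 −0.27 to 0.071 (−0.11). Without the GC trend in Huh7, EGR1 was −0.19, against 0.34, and ETV1 0.11, against −0.65. SPRED1 between the resistant lines was 0.12 without the GC trend, against −0.14.

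Samples with the same replicate number did not deviate together in Huh7 (r = 0.084, 0.062 and −0.228) or throughout in HepG2 (0.246, 0.437 and −0.011), so the numbers were not read as pairs. With the replicate block, 2841 genes were called in Huh7 and 779 in HepG2, and the counts of feedback genes remained 5 and 1; it moved no other count by over 1.5 times.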
